A study of Homo sapiens with 30 samples.

Results

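The genes lying around ERBB2 on chromosome 17q12 were examined in 5 human breast cancer cell lines treated with BMP7. The members were the array probes placed by the array files (build hg18) in a window of chromosome 17 around ERBB2, without those for ERBB2 itself and without names beginning with RPL, RPS, PSM or CACNB. The first member probe began at 34083312 and the last ended at 35634717. Of 84 probes in this window 12 were left out in this way, and 72 of the 41000 probes of the array remained, which represent 53 of its 30484 gene or transcript names. A current symbol was found for 48 of them (31 genes) and the other 24 are given under the name in the files. The rule used positions and names and no measured value.

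Each of the lines HCC1954, MDA-MB-231, MDA-MB-361, T-47D and ZR-75-30 was treated with vehicle or with recombinant human BMP7 for 30 min and 1, 3, 6, 12 and 24 h. RNA from the pooled cells of 3 cultures was labeled with Cy3 (vehicle) or Cy5 (BMP7), and both were hybridized to 1 two-colour Agilent Whole Human Genome array per line and time point, 30 arrays in all. The dyes were never swapped, so a dye effect of a probe and a BMP7 effect that is the same on every array cannot be told apart. The 6 vehicle samples of a line served as its samples for the level of a gene. Their spread holds time in culture and array together. The p-values of a contrast between lines measure that spread and not the spread between independent isolates of a line. The paper states that MDA-MB-231 and T-47D, each at its own serum concentration, were exceptions to the recommended culture conditions. Serum and line therefore cannot be told apart in the contrasts between lines.

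The ERBB2 locus is a classic breast cancer amplicon. In tumors that carry it, extra copies of a stretch of 17q12 hold ERBB2, a receptor tyrosine kinase, together with a variable number of its neighbors, and the transcripts of genes in the amplified stretch are commonly raised. HCC1954, ZR-75-30 and MDA-MB-361 are generally known to carry such an amplification, and MDA-MB-231 and T-47D are not, although the sample labels say neither. BMP7 is a secreted ligand of the bone morphogenetic protein family that signals through receptor serine/threonine kinases and SMAD proteins to targets such as the ID genes. DNA copies were not measured here, so levels of RNA along the window are all that is described, and more copies and more RNA from each copy cannot be told apart.

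Levels are the log2 background-corrected vehicle signal of a probe relative to the median of its array, so that 0 is the middle of the array. Levels of different probes cannot be set against each other, and all comparisons are of 1 probe between lines. A probe counted as detected when it was well above background on all 6 vehicle arrays of at least 1 line. This held for 52 of the 72 members. The 20 others were both probes of PLXDC1, 1 of 2 probes each of NEUROD2 and E01979, the single probes of SPMAP1, IKZF3, ZPBP2 and CSF3, and 12 probes of other transcripts. None of the members' vehicle spots was saturated.

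The window was read in 4 stretches. The proximal stretch held 25 probes (18 detected) from ENST00000325814 to PLXDC1, ending at 34477001. The middle stretch held 12 probes (9 detected) from E01979 past FBXL20, MED1 and CDK12. The core, next to ERBB2, held 15 probes (10 detected) between 35013580 and 35175496, in the order NEUROD2, PPP1R1B, STARD3, TCAP, PNMT, PGAP3, MIEN1, GRB7 and IKZF3. The distal stretch held 20 probes (15 detected) from ZPBP2 past GSDMB, ORMDL3, MED24, THRA, MSL1 and CASC3 to RAPGEFL1.

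Promoter sequences are shown for STARD3, PGAP3 and MIEN1, which were higher in all 3 lines with the amplification and for which a sequence was at hand. Each run is the 250 bases before the RefSeq start of the gene (build GRCh38.p14), 5′ to 3′ on the strand of the gene, with the GC box GGGCGG or its reverse complement CCGCCC in capitals. STARD3 lies on the plus strand (chr17:39636894-39637143), and PGAP3 (chr17:39688058-39688307) and MIEN1 (chr17:39730533-39730782) lie on the minus strand.
STARD3: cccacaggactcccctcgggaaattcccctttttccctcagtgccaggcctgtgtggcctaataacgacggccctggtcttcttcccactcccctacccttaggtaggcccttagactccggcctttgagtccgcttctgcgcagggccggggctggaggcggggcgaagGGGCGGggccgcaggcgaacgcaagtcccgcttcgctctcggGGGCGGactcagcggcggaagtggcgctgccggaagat
PGAP3: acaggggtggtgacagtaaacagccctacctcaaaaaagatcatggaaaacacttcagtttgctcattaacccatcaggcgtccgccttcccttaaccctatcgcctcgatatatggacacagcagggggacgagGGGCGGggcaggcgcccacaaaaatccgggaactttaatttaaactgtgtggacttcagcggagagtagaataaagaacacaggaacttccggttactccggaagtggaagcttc
MIEN1: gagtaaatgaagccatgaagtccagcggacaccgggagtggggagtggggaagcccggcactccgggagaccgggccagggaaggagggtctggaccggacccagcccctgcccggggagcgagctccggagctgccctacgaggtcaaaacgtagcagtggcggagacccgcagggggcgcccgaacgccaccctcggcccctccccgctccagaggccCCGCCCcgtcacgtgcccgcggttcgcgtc
The promoter of STARD3 holds 2 such boxes, and those of PGAP3 and MIEN1 hold 1 each. Among the 21 member genes with a promoter in the table, 14 had a GC box in any of their promoters, against 46.2% of all 27303 genes counted in the same way, over the same length and on both strands. The E box CACGTG was found in 2 of 21 member genes (MIEN1 among them) and 7.73% of all genes, the letters TATAAA in 0 of 21 and 13%, and CCAAT in 6 of 21 and 37.0%. A match is only a match of letters, and the promoters of GRB7, TCAP, PNMT, PPP1R1B and GSDMB are named here without a sequence.

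The arrays differed in quality. Between 55.6% and 69.9% of the vehicle spots of an array were well above background, and the median log2 vehicle signal lay between 5.24 and 7.85. The dimmest array was that of MDA-MB-231 at 6 h, and counts of calls between lines are given with and without it. The arrays lay on 13 slides scanned in 2 batches. All slides but 1 held a single line, so slide and line cannot be told apart. Against MDA-MB-231, T-47D had higher levels of all 5 luminal markers (ESR1, GATA3, KRT8, KRT18 and CDH1) and lower levels of VIM and CDH2. KRT5, a basal keratin, passed background on 8 arrays, 6 of them from HCC1954. Of markers of cells that should be absent, PTPRC passed background on 2 of 30 arrays and DCN on 0, while CD3E and ADIPOQ passed on 30 and COL1A1 on 29. Their part in the results was not tested.

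In the vehicle-treated cells, the core next to ERBB2 stood out in all 3 lines with the amplification. Against the mean of MDA-MB-231 and T-47D, PPP1R1B, STARD3, TCAP, PNMT, PGAP3, MIEN1 and GRB7 were higher in HCC1954, in MDA-MB-361 and in ZR-75-30, from 3.17-fold for TCAP in ZR-75-30 to 314-fold for PNMT in MDA-MB-361, whose probe was well above background on 3 of the 12 reference arrays. Outside the core the lines parted. HCC1954 was also high at GSDMB and ORMDL3 on the distal side. MDA-MB-361 was high at several proximal genes and low at distal ones, as it was just outside the window. ZR-75-30 was high at proximal and middle genes and, less than HCC1954, at GSDMB.

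A member was called when limma's adjusted p over all 41000 probes was under 0.05 and the difference at least 2-fold. In HCC1954 19 of 72 members were called higher and 1 lower, where 12.1% of all probes were called higher and 11.3% lower. In MDA-MB-361 16 members were called higher and 10 lower, against 13.3% and 16.9% of all probes. In ZR-75-30 21 members were called higher and 3 lower, against 12.0% and 12.7% of all probes. T-47D, set against MDA-MB-231 as a comparison of the reference lines, had 14 members called higher and 2 lower, against 14.7% and 18.1% of all probes, and 9 were higher when the 24 h arrays were left out and 4 lower without those of 3 h. Without the dim array of MDA-MB-231 at 6 h, 19 members were called higher and 1 lower in HCC1954, 16 and 8 in MDA-MB-361, 23 and 3 in ZR-75-30 and 17 and 2 in T-47D. The median difference over the 72 members was 0.27 (log2) in HCC1954, 0.05 in MDA-MB-361, 0.34 in ZR-75-30 and 0.36 in T-47D, beside medians over all probes of -0.23, -0.18, -0.03 and 0.16.

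These counts were unevenly spread along the window. In the core 12 of 15 probes were called higher in HCC1954, 9 in MDA-MB-361 and 9 in ZR-75-30, and 0 were called lower in any of them. The median core difference was 3.85 (log2) in HCC1954, 2.28 in MDA-MB-361 and 2.20 in ZR-75-30. T-47D had 5 of 15 core probes called higher than MDA-MB-231, with a median of 0.38. Over the 3 lines 10 probes were called higher in each of them, which were 9 core probes for the 7 genes above and the proximal transcript BX114764. A further 5 were called higher in 2 of the lines, 16 in 1 and 41 in none. The share of all probes called in several of these lines was not counted. The 3 contrasts use the same reference lines, so their calls are not independent.

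**Figure D1:**
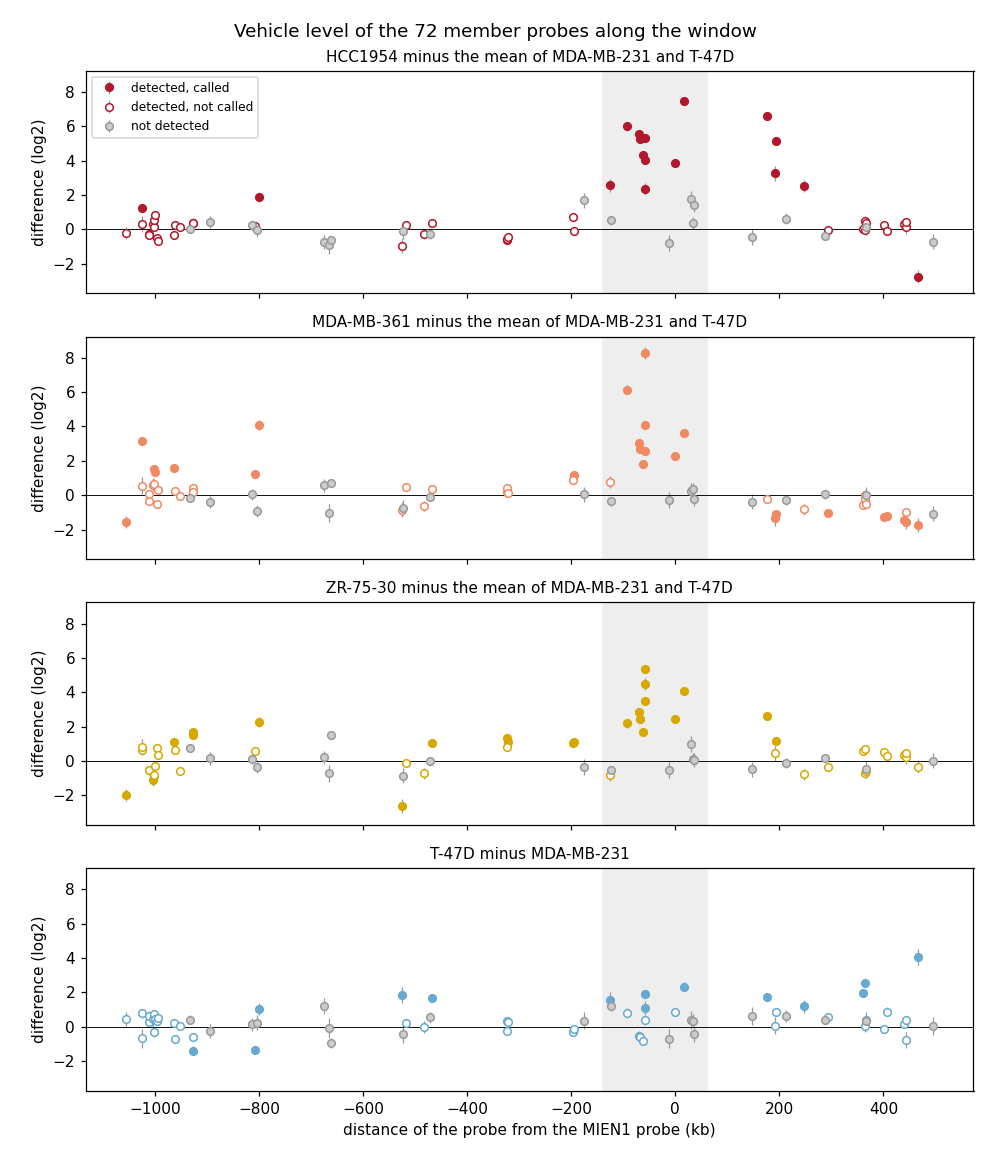
Difference in vehicle level (log2, ± SE from limma) of each of the 72 member probes between HCC1954, MDA-MB-361 or ZR-75-30 and the mean of MDA-MB-231 and T-47D, and between T-47D and MDA-MB-231, against the distance of the probe from the MIEN1 probe in kb. Filled points are detected and called, open points detected and not called, gray points not detected, and the shaded band is the core, where 12, 9 and 9 of 15 probes were called higher in the first 3 panels and 5 in the last.

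GRB7 (chr17:35155907-35155966) encodes an adaptor protein that binds activated receptor tyrosine kinases. Its level had a lowest, median and highest value over 6 arrays of 7.41, 7.81 and 8.26 in HCC1954. In ZR-75-30 the values were 4.04, 4.39 and 5.05, and in MDA-MB-361 3.95, 4.07 and 4.10. In T-47D they were 1.40, 1.45 and 1.96, and in MDA-MB-231 -2.42, -0.52 and -0.02. The lines thus fell in the order HCC1954, ZR-75-30 and MDA-MB-361, T-47D, MDA-MB-231, in which ZR-75-30 and MDA-MB-361 overlapped and the other neighbors did not. The difference from the mean of the reference lines was 7.45 (SE 0.22), or 175-fold, in HCC1954, 4.08 (16.9-fold) in ZR-75-30 and 3.64 (12.5-fold) in MDA-MB-361. The reference lines also differed from each other, since GRB7 was 5.01-fold higher in T-47D than in MDA-MB-231 (log2 2.33, SE 0.26, adjusted p = 5.3e-09).

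STARD3 (chr17:35070305-35070647) encodes a cholesterol-binding protein of late endosomes. Its level was 7.55, 7.74 and 7.94 (lowest, median, highest) in HCC1954, 4.93, 5.19 and 5.37 in MDA-MB-361 and 4.65, 4.90 and 5.35 in ZR-75-30. It was 2.24, 2.67 and 3.70 in MDA-MB-231 and 1.78, 2.16 and 2.52 in T-47D. HCC1954 was highest on every array, MDA-MB-361 and ZR-75-30 overlapped, and so did the reference lines. The differences were 5.24 (37.9-fold) in HCC1954, 2.67 (6.38-fold) in MDA-MB-361 and 2.45 (5.47-fold) in ZR-75-30. The second STARD3 probe gave 5.57, 3.02 and 2.84.

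MIEN1 (chr17:35138994-35139053), a small membrane-anchored protein linked to cell migration whose gene neighbors ERBB2, was again highest in HCC1954. Its level was 9.42, 9.64 and 10.45 in HCC1954, 8.0, 8.19 and 9.13 in ZR-75-30 and 8.10, 8.23 and 8.31 in MDA-MB-361. In T-47D it was 5.87, 6.18 and 7.39, and in MDA-MB-231 5.16, 5.37 and 6.05. All arrays of the 3 lines lay above all arrays of the other 2. The differences were 14.4-fold, 5.42-fold and 4.86-fold in HCC1954, ZR-75-30 and MDA-MB-361.

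TCAP (chr17:35076266-35076325) encodes telethonin, a protein of the sarcomere, and was well above background on all 30 arrays. Its level was 6.19, 6.46 and 6.81 in HCC1954, 3.79, 4.0 and 4.32 in MDA-MB-361 and 3.39, 3.88 and 4.16 in ZR-75-30. It was 2.35, 2.52 and 2.96 in MDA-MB-231 and 1.32, 1.67 and 2.68 in T-47D. It was 19.7-fold higher in HCC1954, 3.58-fold in MDA-MB-361 and 3.17-fold in ZR-75-30, again with no overlap with the reference lines.

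PGAP3 (chr17:35081066-35081125), which acts in the remodeling of GPI-anchors, broke this order. Its level was 7.22, 7.42 and 7.76 in HCC1954 and 7.27, 7.40 and 8.06 in ZR-75-30, so that these lines overlapped. MDA-MB-361 came next with 6.00, 6.30 and 6.48, then T-47D with 2.76, 3.19 and 3.41 and MDA-MB-231 with 0.66, 1.26 and 1.53. The differences were 5.34 (40.4-fold) in ZR-75-30, 5.31 (39.7-fold) in HCC1954 and 4.11 (17.2-fold) in MDA-MB-361, each with SE 0.15. T-47D was 3.78-fold above MDA-MB-231. The second PGAP3 probe was not well above background on any array of the reference lines, and it was at least 16.5-fold, 11.4-fold and 6.00-fold higher in HCC1954, ZR-75-30 and MDA-MB-361. Such a bound sets the mean of the bright line against, on each reference array, the higher of the probe's own dim signal and the lowest signal well above background. For this probe its own signal was the higher throughout, so the bounds equal the measured folds.

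PNMT and PPP1R1B differed most in order from the rest of the core. PNMT (chr17:35080100-35080159) encodes the enzyme that turns noradrenaline into adrenaline. Its level was 5.24, 5.52 and 5.59 in MDA-MB-361, 1.26, 1.65 and 2.22 in ZR-75-30 and -0.79, -0.44 and 0.01 in HCC1954. In T-47D it was -3.04, -2.32 and -1.28, with 2 of 6 arrays well above background, and in MDA-MB-231 -4.56, -3.93 and -0.60, with 1 of 6. The difference was 8.29 (SE 0.35), or 314-fold, in MDA-MB-361, 4.47 (22.2-fold) in ZR-75-30 and 2.37 (5.18-fold) in HCC1954, whose arrays overlapped with those of MDA-MB-231. Set against the mean of all 4 other lines, PNMT was 6.58 higher in MDA-MB-361 (adjusted p = 6.6e-17) and 0.82 lower in HCC1954, the latter short of 2-fold.

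PPP1R1B (chr17:35046134-35046193) encodes DARPP-32, a phosphatase inhibitor known from dopamine signaling. Its level was 1.62, 2.03 and 2.34 in MDA-MB-361, 1.47, 1.63 and 3.05 in HCC1954 and -2.46, -2.0 and -1.11 in ZR-75-30, where 4 of 6 arrays were well above background. No array of MDA-MB-231 or T-47D was well above background. It was at least 66.6-fold higher in MDA-MB-361, at least 60.9-fold in HCC1954 and at least 4.34-fold in ZR-75-30. MDA-MB-361 and HCC1954 overlapped, and all arrays of ZR-75-30 lay below both.

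HCC1954 had higher levels than the mean of the 4 other lines for 6 of these 7 core genes, all but PNMT. For GRB7 this difference was 5.52 (log2, SE 0.20), for STARD3 3.96, for PPP1R1B 3.92, for TCAP 3.43, for PGAP3 2.95 and for MIEN1 2.67. In this comparison ZR-75-30 was called higher for PNMT, PGAP3 and GRB7 and MDA-MB-361 for PPP1R1B, PNMT and PGAP3. The other 3 probes called in the core of HCC1954 were weak. They were the second NEUROD2 probe (5.89-fold), which passed background clearly on 6 of 6 arrays in HCC1954 but on 2 of 12 in the reference lines, and the undetected probes of AK128436 and IKZF3.

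**Figure D2:**
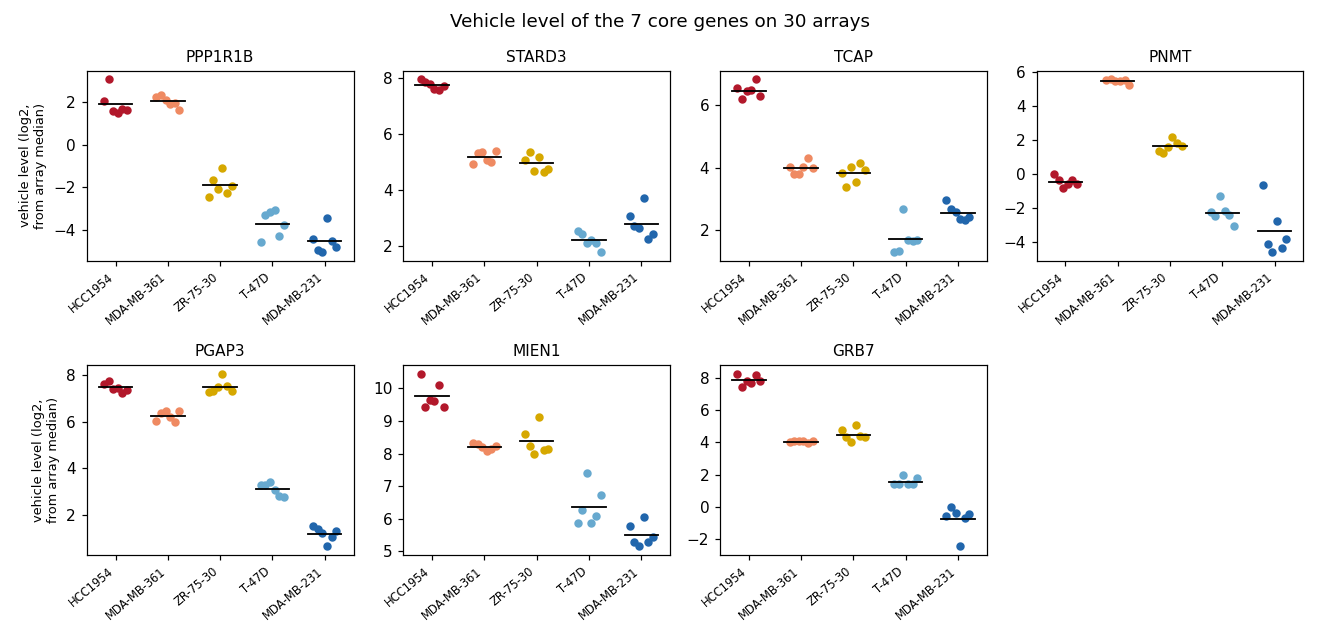
Vehicle level (log2 from the array median) of the brightest probe of the 7 core genes in 5 cell lines, with 1 point per array in order of time from 30 min to 24 h and a bar at the mean of 6 arrays. All points of HCC1954, ZR-75-30 and MDA-MB-361 lie above those of T-47D and MDA-MB-231 in 6 panels, and in the panel of PNMT those of HCC1954 overlap with MDA-MB-231.

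The lines were also taken as units. On the mean of each line over its 6 arrays, 3 lines against 2, limma called 0 of 72 members and 0.0% of all probes, and 12 members had an unadjusted p under 0.05, a level that 4.58% of all probes reached. The same test also called none of the changes put into simulated data, so its adjusted count of 0 says nothing about the groups. The lowest adjusted p among the members was 0.66, for PGAP3, with a difference of 4.92 (SE 0.75). For GRB7 the difference was 5.06 with SE 1.38, and for MIEN1 2.86 with SE 0.63. The means of all 3 lines lay above both reference means for 13 of 72 members and below both for 5, where 6.84% and 13.7% of all probes did so.

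On the distal side, GSDMB and ORMDL3 had their largest differences in HCC1954. GSDMB (chr17:35315272-35315681), one of the gasdermins, a family of pore-forming proteins, was at 4.71, 5.27 and 5.99 in HCC1954 and 0.80, 1.22 and 1.79 in ZR-75-30. It was at -0.75, -0.42 and 0.01 in T-47D, -1.88, -1.58 and -1.24 in MDA-MB-361 and -3.45, -2.01 and -1.68 in MDA-MB-231. The difference from the reference lines was 6.62 (98.3-fold, SE 0.21) in HCC1954 and 2.59 (6.04-fold) in ZR-75-30, and -0.23 in MDA-MB-361, which was not called. Against the 4 other lines GSDMB was 6.03 higher in HCC1954, while the difference of ZR-75-30 fell just short of 2-fold.

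ORMDL3, a regulator of sphingolipid synthesis and the neighbor of GSDMB, was read by 2 probes. On the brighter probe (chr17:35331025-35331084) HCC1954 was at 9.19, 9.90 and 10.49 and ZR-75-30 at 6.95, 7.04 and 7.34. T-47D was at 6.29, 6.54 and 7.69, MDA-MB-361 at 5.23, 5.33 and 5.50 and MDA-MB-231 at 5.50, 5.96 and 10.60, the last value from the dim array at 6 h. The difference in HCC1954 was 3.28 (9.69-fold) with that array and 3.67 without it. The second probe gave 5.13 (SE 0.16) in HCC1954, 1.15 in ZR-75-30 and -1.10 in MDA-MB-361, and on it the highest value of MDA-MB-231 was 0.30. GSDMA, another gasdermin further along (chr17:35387013-35387072), passed background on all 6 HCC1954 arrays and on 1 of the 24 others. Its measured level in HCC1954 was 5.82-fold that of the reference lines, of whose 12 arrays 1 was well above background, and the arrays overlapped.

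Beyond GSDMA, no distal probe was called higher in HCC1954, and RAPGEFL1 was at least 6.53-fold lower than the mean of the reference lines. Its probe was well above background on 0 arrays of HCC1954, 6 of 6 of T-47D and 1 of 6 of MDA-MB-231. The bound thus rests mainly on T-47D and does not set HCC1954 apart from MDA-MB-231. In all 4 of 20 distal probes were called higher and 1 lower in HCC1954, beside 12.1% and 11.3% of all probes. After the window 24 of 99 probes were called higher in that line. In ZR-75-30 2 distal probes were called higher, beside 12.0% of all probes, namely GSDMB and the second probe of ORMDL3. In T-47D, RAPGEFL1 (chr17:35604950-35605009) was 16.7-fold and the thyroid hormone receptor gene THRA (chr17:35503534-35503593) 5.94-fold higher than in MDA-MB-231. For RAPGEFL1 that fold is against a level mostly not well above background. The levels of THRA were 4.85, 5.40 and 5.57 in T-47D and 2.39, 2.62 and 3.16 in MDA-MB-231, without overlap.

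MDA-MB-361 was low over the same stretch. Of the 20 distal probes 9 were called lower in MDA-MB-361 and 0 higher, beside 16.9% and 13.3% of all probes. The median difference was -0.91 against -0.18 over all probes. The stretches of the same length just outside the window were low in this line too. There 17 of 36 probes were called lower before the window (median -0.99) and 35 of 99 after it (median -0.59). MSL1, CASC3 and MED24 were chosen for mention after their values were seen. MSL1, a subunit of a histone acetyltransferase complex, was at 2.92, 3.00 and 3.35 in MDA-MB-361, below all arrays of T-47D (3.91 to 4.52) and of MDA-MB-231 (3.97 to 5.42). Its difference was -1.25 (SE 0.16) and that of its second probe -1.20. CASC3, a component of the exon junction complex, was called on 2 of 3 probes (-1.44 and -1.56), while its brightest probe at -0.99 fell just short of 2-fold. MED24, a subunit of the Mediator complex, had -1.03, and -0.91 without the 3 h arrays, which is short of 2-fold. ORMDL3 had -1.33, and -0.93 without the dim array of MDA-MB-231, which is no longer past the 2-fold threshold.

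**Figure D3:**
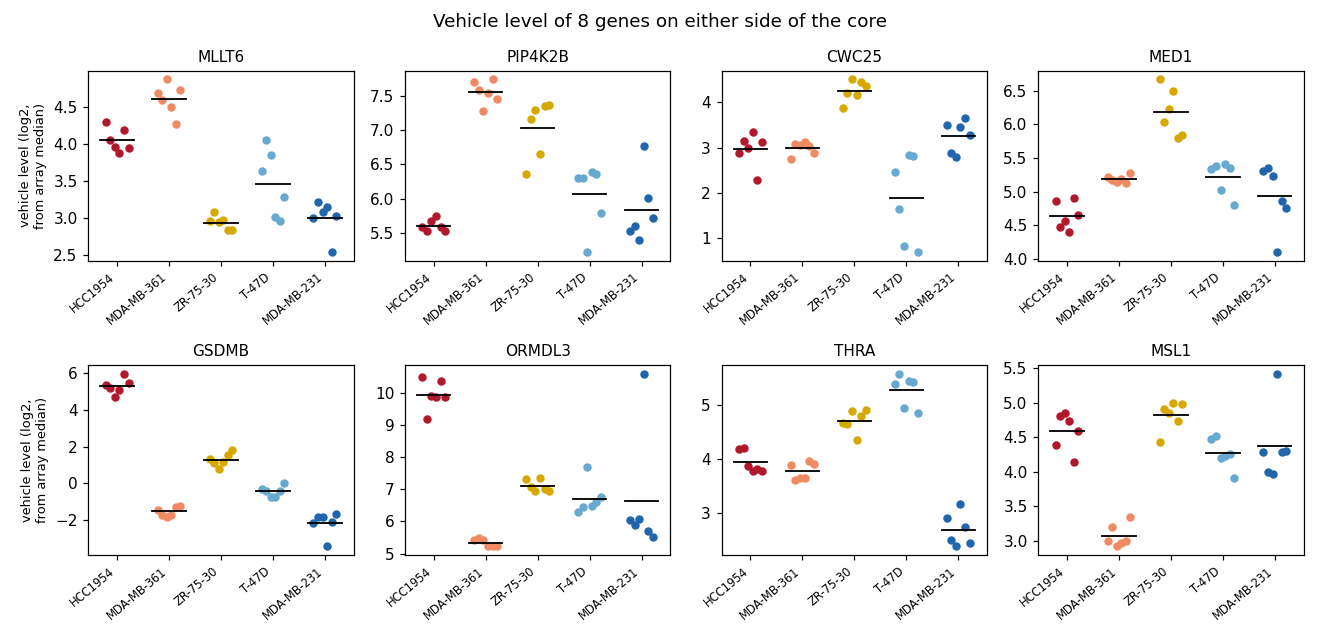
Vehicle level (log2 from the array median) of the brightest probe of 4 genes on the proximal or middle side (MLLT6, PIP4K2B, CWC25, MED1) and 4 on the distal side (GSDMB, ORMDL3, THRA, MSL1), with 1 point per array in order of time and a bar at the mean of 6 arrays. HCC1954 is high at GSDMB and ORMDL3, MDA-MB-361 is high at MLLT6 and PIP4K2B and low at MSL1, and the single high point of MDA-MB-231 at ORMDL3 (10.60) is its array at 6 h.

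On the proximal side MDA-MB-361 and ZR-75-30 had raised genes, but only partly the same ones. In MDA-MB-361 6 of 25 proximal probes were called higher and 1 lower, beside 13.3% and 16.9% of all probes. MLLT6 (chr17:34139201-34139260), a PHD-finger chromatin protein, was at 4.26, 4.64 and 4.87 in MDA-MB-361, against 2.54 to 3.21 in MDA-MB-231 and 2.95 to 4.05 in T-47D. The difference was 1.38 (2.60-fold), with 1.5 on another probe and no call on the 2 dimmer ones. PIP4K2B (chr17:34175500-34175559), a phosphatidylinositol phosphate kinase, was at 7.29, 7.57 and 7.74 in MDA-MB-361 and 1.61 higher than in the reference lines. Its 2 other probes gave 0.22 and -0.06, so the probes of this gene disagreed. LASP1, an actin-binding protein chosen for mention after its values were seen, was 1.25 higher. The second probe of AK092875 was 3.17 higher in MDA-MB-361, while its brightest probe, which ranged from 2.95 to 8.47 in MDA-MB-231, gave 0.56 and was not called. The transcript ENST00000325814 was lower in MDA-MB-361 (-1.59) and in ZR-75-30 (-1.99).

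In ZR-75-30 5 of 25 proximal probes were called higher and 2 lower, beside 12.0% and 12.7% of all probes. In the middle stretch 5 of 12 were called higher and 1 lower. CWC25 (chr17:34211407-34211466), a splicing factor, was at 3.89, 4.28 and 4.51 in ZR-75-30, above all arrays of MDA-MB-231 (2.80 to 3.67) and T-47D (0.70 to 2.83). It was 3.22-fold higher than in the reference lines, with 1.5 (log2) on the second probe, and 1.48 higher than in the 4 other lines. PIP4K2B was 1.09 higher with overlapping arrays, where its other probes gave 0.66 and -0.56. MED1, another Mediator subunit, was at 5.80, 6.13 and 6.67 in ZR-75-30, above the 4.10 to 5.35 of MDA-MB-231 and the 4.81 to 5.40 of T-47D, a difference of 1.1. The transcription-elongation kinase CDK12 had 1.03 and FBXL20, a substrate-binding subunit of a ubiquitin ligase, 1.04. MED1, CDK12 and FBXL20 were named after their values were seen. These and PIP4K2B lay near the 2-fold threshold and fell below it without the arrays of 6 h (MED1, 0.97), of 1, 3 or 6 h (CDK12, lowest 0.93), of 3 or 24 h (PIP4K2B, lowest 0.91) or of 1, 3 or 24 h (FBXL20, lowest 0.85). E01979 was lower by log2 -2.61, with overlapping arrays.

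In HCC1954 2 of 25 proximal probes and 1 of 12 middle probes were called higher, beside 12.1% of all probes, and 0 lower. BX114764, an expressed sequence near LASP1, was not well above background on any array of the reference lines. It was at least 16.8-fold higher in MDA-MB-361, at least 4.80-fold in ZR-75-30 and at least 3.73-fold in HCC1954, where 6, 4 and 4 of 6 arrays were well above background. These bounds lie close to the measured folds, and under normexp background correction the difference in HCC1954 was -0.00155. Between the reference lines, T-47D was lower than MDA-MB-231 for CWC25 (-1.38) and LASP1 (-1.33) and higher for FBXL20 (1.67) and E01979 (1.85).

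The flanks of the same length outside the window were counted for comparison. Before the window, 3 of 36 probes were called higher and 3 lower in HCC1954, 4 and 17 in MDA-MB-361, and 2 and 13 in ZR-75-30. After it, 24 of 99 were called higher and 9 lower in HCC1954, 1 and 35 in MDA-MB-361, and 15 and 15 in ZR-75-30. Of all probes, 12.1% were called higher and 11.3% lower in HCC1954, 13.3% and 16.9% in MDA-MB-361, and 12.0% and 12.7% in ZR-75-30. Higher calls after the window in HCC1954 and lower calls on both sides in MDA-MB-361 thus exceeded these shares. The median differences of the flanks lay between -0.99 and 0.18, all below the core medians of the same lines.

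The arrays were also compared without a model. All 6 arrays of a line lay above all 12 of the reference lines for 10 of 72 members in HCC1954, 16 in MDA-MB-361 and 17 in ZR-75-30, where 5.62%, 8.21% and 5.63% of all probes did so. They lay below for 0, 7 and 1 members, against 3.89%, 9.39% and 3.75% of all probes.

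ERBB signaling outside the window was read from 12 genes. In HCC1954 2 were called higher (EGFR and ERRFI1) and 1 lower (ERBB4), beside 12.1% and 11.3% of all probes. In MDA-MB-361 4 were higher (ERBB3, GRB2, AKT1 and MAPK3) and 3 lower (EGFR, SHC1 and ERRFI1), and in ZR-75-30 5 were higher (ERBB3, GRB2, GAB1, AKT1 and MAPK3) and 2 lower (EGFR and ERRFI1). T-47D differed from MDA-MB-231 in 5 of them, with ERBB3, ERBB4 and GAB1 higher and EGFR and ERRFI1 lower. Of all probes, 13.3% were called higher and 16.9% lower in MDA-MB-361, 12.0% and 12.7% in ZR-75-30 and 14.7% and 18.1% in T-47D.

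Few members were called for BMP7 across the lines. Of 5 known BMP targets, ID1, ID2, ID3 and SMAD6 rose from 30 min to 3 to 24 h and SMAD7 was not called. These calls depended on single lines, since 0 of all probes were called higher in that comparison without ZR-75-30, 0 without line as a block and 2 without HCC1954. Scan batch was unevenly spread over this comparison too. At 30 min only MDA-MB-361 and T-47D were scanned in the first batch, which held most of the later arrays. With scan batch as a term, 5 of all probes were called higher and 6 lower, where the main fit called 78 and 156. Time and scan batch are thus not fully separated in these calls. In the main fit of this comparison 0 of 72 members passed an adjusted p under 0.05, where 0.571% of all probes did. An unadjusted p under 0.05 was found for 12 members, a level that 16.8% of all probes reached. STARD3 had the difference 0.28 with adjusted p = 0.26. Of 2153 member values on single arrays, 46 (2.14%) were changed at least 2-fold, beside 1.87% over all probes. Among values with both channels well above background it was 14 of 1431 (0.978%), beside 0.798%.

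On the mean over time of 5 lines, 1 member was called, where 0.00976% of all probes were. This was the brightest probe of AK092875 (chr17:34114176-34114235), at 0.52 (log2 BMP7/vehicle, SE 0.022, adjusted p = 0.025). Its ratio was above 0 on all 30 arrays, with line means of 0.58 in T-47D, 0.53 in MDA-MB-231, 0.55 in HCC1954, 0.48 in ZR-75-30 and 0.49 in MDA-MB-361. It was at 0.26 to 0.53 at 30 min in HCC1954, MDA-MB-231, MDA-MB-361 and ZR-75-30, and its later change was not called (0.15, adjusted p = 0.46). The second probe of AK092875 had a mean of 0.06 and was not called. Because the dyes were not swapped, a dye effect of this probe and an effect of BMP7 cannot be told apart, and without any single line the call was lost.

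Single lines had more calls, tested as the mean of 6 time points against 0. Time points are not replicates, so these SEs and p-values measure spread over times and arrays and not between repeats of a treatment. A dye effect and a BMP7 effect are not separated in these calls either. The most were called in ZR-75-30 (12 members, beside 9.84% of all probes), followed by MDA-MB-361 (8, beside 9.91%), HCC1954 (7, beside 5.35%), T-47D (6, beside 11.5%) and MDA-MB-231 (1, beside 1.99%). These counts depended on single arrays. Without the array at 24 h they were 7 in ZR-75-30, 3 in MDA-MB-361 and 4 in HCC1954, without the array at 6 h 4 in ZR-75-30, and without any other 1 time point 4 or 5 in MDA-MB-361. In T-47D the count was 10 when the ZR-75-30 array at 6 h was left out of the shared fit. With treatment time as a block HCC1954 had 11. In the main fit, 4 of the 5 known BMP targets were called higher in MDA-MB-361 and 3 in MDA-MB-231. Only ID2 was called in HCC1954 and in ZR-75-30, and 0 of the 5 in T-47D. On the mean over lines 0 of the 5 were called.

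In HCC1954 STARD3 and GRB7 were slightly lower with BMP7, while the brightest probes of the other 5 of the 7 core genes above were not called. STARD3 had ratios of -0.74, -0.51, -0.54, -0.42, -0.14 and -0.65 from 30 min to 24 h, a mean of -0.50 (SE 0.11, adjusted p = 0.0064), and its second probe had -0.51. GRB7 had -0.41, -0.16, -0.22, -0.14, -0.38 and -0.38, a mean of -0.28 (adjusted p = 0.019). All 6 arrays were below 0 for both genes, already at 30 min. Without the array at 30 min or that at 24 h GRB7 had -0.26 and was no longer called. With normexp and median scaling GRB7 turned to 0.19 and STARD3 had -0.06, neither of them called. The second probe of PGAP3 had -0.75 and that of ORMDL3 -0.60, but their brighter probes had -0.12 and -0.01 and were not called. AK092875 (0.55) and AW452819 (0.62) were higher.

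In MDA-MB-361 GRB7 was higher with BMP7, opposite to HCC1954 except under that scaling. Its ratios were 0.30, 0.24, 0.12, 0.14, 0.53 and 0.19, with a mean of 0.25 (SE 0.071, adjusted p = 0.024), and the call was lost without the array at 30 min, 1, 12 or 24 h, with means of 0.20 to 0.27. STARD3 had 0.22 and was not called. Besides AK092875, 1 of 3 probes of CASC3 (0.39), 1 of 2 of THRA (0.28) and 1 of 4 of MLLT6 (0.25) were higher, none of them the brightest of its gene. PIP4K2B (-0.39), STAC2 (-0.30) and an undetected probe were lower. Over both groups of lines, 3 against 2, 0 members and 0.0% of all probes differed in response, with 5 members at an unadjusted p under 0.05 beside 1.98% of all probes.

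In ZR-75-30 PGAP3 was lower on both probes (-0.31 and -0.65, adjusted p = 0.00052 and 0.033). PPP1R1B had -0.75 (adjusted p = 0.00092), with ratios of -0.57 to -1.07, but 2 of its 6 vehicle spots were not well above background and the ratio was -0.23 after another background correction. PIP4K2B was lower on 2 of 3 probes (-0.28 and -0.22) and MSL1 by -0.28. Higher were AW452819 (0.48), AK092875 (0.48), both probes of E01979 (0.46 and 0.60), the brightest of THRA (0.30) and 1 of MLLT6 (0.25). Without the array at 6 h MSL1 had -0.16, THRA 0.24 and the brightest probe of E01979 0.19, none of them called. Only AK092875, AW452819, PPP1R1B and the brightest probe of PGAP3 stayed called without that array. Without the array at 30 min the second probe of PGAP3 had -0.34 and was not called.

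In T-47D MIEN1 was lower (-0.26, SE 0.054, adjusted p = 0.0027), together with the second probe of MED1 (-0.59), E01979 (-0.53) and BC062294 (-0.25), and PIP4K2B was higher (0.27). In MDA-MB-231 AK092875 (0.53) was the only member called. TCAP and PNMT were not called in any line. Of the 12 ERBB signaling genes, AKT1 was lower in HCC1954, EGFR in MDA-MB-361 and EGFR and GRB2 in ZR-75-30. In these lines 5.35%, 9.91% and 9.84% of all probes were called in either direction. None of the 12 genes passed in the mean over lines or in the change with time.

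**Figure D4:**
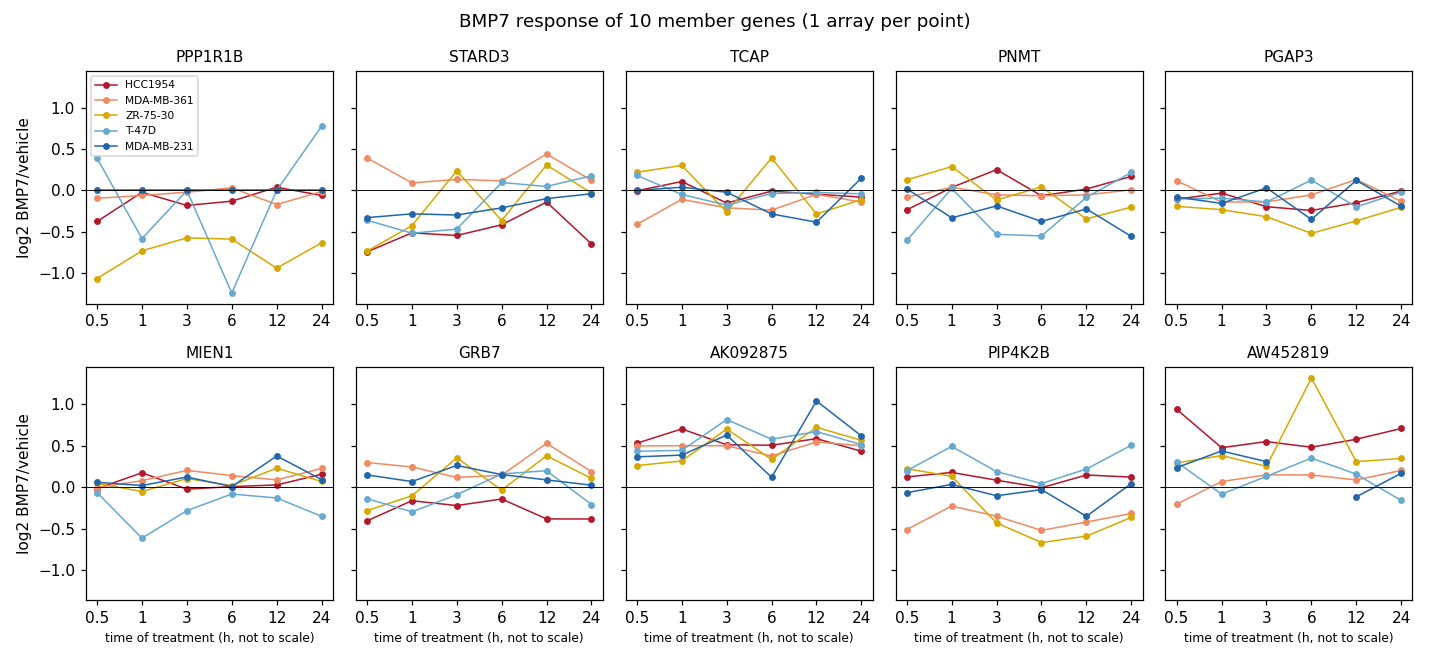
Log2 ratio of BMP7 over vehicle (1 array per point) against the time of treatment in hours for the 7 core genes, AK092875, PIP4K2B and AW452819, with 1 line per cell line and 0 marked. AK092875 is above 0 on all 30 arrays, and GRB7 is below 0 on all 6 arrays of HCC1954 and above 0 on all 6 of MDA-MB-361.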

How the data were processed

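RNA levels were measured on 30 two-colour Agilent arrays, 1 per time point (6) and breast cancer line (5), with vehicle in Cy3 and BMP7 in Cy5. Per the file headers, Feature Extraction 9.5.1.1 read the arrays on an hg18 design, subtracted background and normalized the dyes within each array. The processed, mean and background intensities and the log10 ratio of each spot were deposited, as was a matrix of log2 ratios used only as an alternative. The p-values the software gave with each ratio were not used. Control spots and spots marked as outliers were left out and spots of a probe averaged. A value left missing in this way was not imputed.

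Vehicle levels were log2 processed signals centered on the array median, and BMP7 responses the deposited ratios as log2, centered likewise. Both were fitted over all 41000 probes with limma 3.58.1 (R 4.3.3), p-values were adjusted by Benjamini-Hochberg and called under 0.05, and a vehicle call also needed 2-fold. The self-test ran on simulated data. The number of arrays limits the precision. A gene not well above background on any array of a group has only a bound, the bright mean against the higher of its own dim signal and the lowest signal well above background on each dim array. Python 3.11.15 with pandas 2.3.3, numpy 2.4.6 and matplotlib 3.10.9 was used for the rest. Symbols and promoters come from RefSeq tables.

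The genes named are the core genes, up to 5 called genes per contrast from the other stretches and up to 5 per BMP7 test by size, read from the brightest probe. Others were named after their values were seen. Of the ERBB signaling list, 2 genes are not reported here. Members and lists were chosen with earlier results of these data known. Alternatives were another centering, background correction or normalization, the red channel, detection filters, other reference lines, slide or scan batch terms, a block for time point and leaving out arrays. Number of columns from other series: 0.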

Additional observations from a re-analysis of the deposited data

Results flagged for a closer look

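Of 170 sets of 6 arrays (the named probes in each line), 19 held 1 vehicle level far from the other 5, where chance gives about 1 in 20 (8.5). The dim array of MDA-MB-231 at 6 h held 11 of them. On it AK092875 was at 8.47 where the other 5 arrays lay between 2.95 and 4.10, and ORMDL3 at 10.60 where they lay between 5.50 and 6.08. The same array had AK092875 on its second probe at 2.15, LASP1 at 8.80, MSL1 at 5.42, BC062294 at 6.56 and PPP1R1B at -3.43 above its other arrays, and GRB7 at -2.42, GSDMB at -3.45, STAC2 at -3.23 and the second probe of STARD3 at -0.26 below them. The other 8 far values were PPP1R1B in HCC1954 at 1 h (3.05), TCAP in T-47D at 3 h (2.68), PNMT in MDA-MB-361 at 24 h (5.24), PGAP3 in ZR-75-30 at 6 h (8.06), ORMDL3 in T-47D at 3 h (7.69), MLLT6 in MDA-MB-231 at 12 h (2.54), E01979 in ZR-75-30 at 0.5 h (0.43) and STAC2 in T-47D at 24 h (-1.03).

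In 10 of 340 pairs of lines, all arrays of 1 line had a BMP7 ratio above 0 and all of the other below 0. None of these differences was tested, and the share of such pairs over all probes was not counted. Several of the named probes, STARD3, GRB7, MIEN1, PIP4K2B and E01979 among them, were named for BMP7 calls in these lines. A shared sign within a line was thus partly set by that choice. GRB7 differed in mean ratio by -0.41 between HCC1954 and MDA-MB-231 and by -0.54 between HCC1954 and MDA-MB-361. STARD3 differed by -0.72 between HCC1954 and MDA-MB-361 and by -0.43 between MDA-MB-231 and MDA-MB-361. MIEN1 differed by 0.37 between MDA-MB-231 and T-47D, PIP4K2B by -0.67 between MDA-MB-361 and T-47D, ENST00000325814 by -1.15 between HCC1954 and MDA-MB-361 and E01979 by -0.99 between T-47D and ZR-75-30. The second probe of CWC25 differed by -0.27 between HCC1954 and MDA-MB-361 and by 0.31 between MDA-MB-361 and ZR-75-30.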

How the results depend on the processing

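Of 1275 alternative values for 71 vehicle calls of named genes, 1180 kept direction and call, 86 lost the call and 9 turned. The gene calls lost it most often against the mean of the other 4 lines (23) and under normexp background correction (19). Of 469 values for 28 BMP7 calls, 367 kept direction and call, 101 lost it and 1 turned. Against the other 4 lines, a contrast that puts the amplified lines in the reference, PPP1R1B in ZR-75-30 was at -0.84, PNMT in HCC1954 at -0.82, and in T-47D PNMT was at -3.10, PGAP3 -2.49, GRB7 -2.34, GSDMB -1.15 and BX114764 -1.41. Under normexp background correction IKZF3 and BX114764 in HCC1954 were at -0.034 and -0.00155, and with normexp and median scaling GRB7 in HCC1954 had a BMP7 ratio of 0.19. The cause was not tested.

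Of 283 counts of members called under alternatives, 237 were within 1.5 times the main count. Under normexp background correction 12 were higher in HCC1954, 1 lower in MDA-MB-361 and 5 higher in T-47D. Against the other 4 lines 4 were lower in HCC1954, 9 higher in MDA-MB-361, 10 higher and 7 lower in ZR-75-30, and 5 higher and 13 lower in T-47D. Centering on the 75th percentile gave 2 lower in HCC1954, the red channel 1 lower in T-47D and the first scan batch alone 4 lower in T-47D. That centering moved the split over all probes in HCC1954 from 4954 higher and 4648 lower to 4157 and 5905, and in T-47D from 6029 and 7433 to 7966 and 6034, with all-probe medians of -0.39 and 0.38 in place of -0.23 and 0.16.

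For BMP7, normexp and median scaling called 8 members in the mean over lines, 4 in HCC1954, 21 each in MDA-MB-231 and MDA-MB-361 and 0 each in T-47D and ZR-75-30. Over all probes that scaling called 3120 higher and 26 lower in the mean over lines, where the main fit called 4 and 0. In HCC1954 it called 473 and 32 (main fit 1093 and 1099) and in MDA-MB-231 5266 and 5787 (498 and 319). In MDA-MB-361 it called 4726 and 4281 (2038 and 2023), in T-47D 1 and 0 (2192 and 2519). In ZR-75-30 it called 20 and 3 (1953 and 2080). The member counts thus moved the same way as those over all probes. With both channels well above background, 1 member was called in the change with time and 2 in MDA-MB-231, and with at least 1 channel 2 in MDA-MB-231. The matrix values gave 4 in MDA-MB-231 and 10 in T-47D. A slide block and a scan batch term each gave 4 in MDA-MB-361. With time point as a replicate block the count in HCC1954 was 11, and 1, 9, 9 and 13 in MDA-MB-231, MDA-MB-361, T-47D and ZR-75-30, while vehicle counts were as without it. The block is the time of treatment, which the lines share by design, and nothing else pairs their arrays.

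Leaving out 1 time point or array gave 19 to 19 higher and 1 to 2 lower in HCC1954, 16 to 17 and 8 to 12 in MDA-MB-361, 17 to 23 and 2 to 3 in ZR-75-30, 9 to 17 and 2 to 4 in T-47D, and 0 to 0 for 3 lines against 2. The BMP7 counts were 4 to 9 in HCC1954, 1 to 1 in MDA-MB-231, 3 to 10 in MDA-MB-361, 4 to 10 in T-47D, 4 to 11 in ZR-75-30, and 0 to 0 in the mean over lines without 1 line. Leaving out the arrays of MDA-MB-231 at 6 h and of ZR-75-30 at 6 h was chosen after seeing the data. Signal over background limits PPP1R1B, PNMT, BX114764 and GSDMA in the reference lines, and RAPGEFL1 in MDA-MB-231 and HCC1954.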
